A study of Mus musculus with 2 samples.

Results

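Nonclassical monocytes are the patrolling blood monocytes of the mouse, which carry little Ly6C on their surface and crawl along the inner wall of small vessels, including those of the lung. They arise largely from classical, Ly6C-high monocytes, depend on the nuclear receptor Nr4a1 for their formation and survival, and are held at the vessel wall through the chemokine receptor Cx3cr1 and the integrin subunit Itgal. Classical monocytes, by contrast, use Ccr2 to leave the bone marrow and enter injured tissue, where they can become macrophages.

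Here they were described among living CD45+ lung cells of C57BL/6N mice, sorted and profiled one cell at a time. One library came from mice on day 15 after bleomycin (BLM), a drug given into the airways to provoke inflammation and fibrosis, and 1 library from untreated (naive) mice. Each was a pool of 3 mice, and the file headers give a different pipeline run date for each. With 1 library per group, treatment, mice and library preparation cannot be told apart, no test between the groups was possible, and every interval below is a 95% interval that covers counting error only. The tables listed 8776 barcodes, of which 8451 had 200 genes or above and no more than 15% of mitochondrial UMIs (unique molecular identifiers, 1 for each captured mRNA molecule). The median passing cell held 2437 UMIs in the BLM library and 2759 in the naive library. The libraries shared 22 barcodes, 4 of which belonged to a member in one of the libraries.

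Members were chosen by their own counts. A cell had to hold 3 or more UMIs of Ace, Adgre4, Treml4, Eno3 and Cd300e together, at least as many as of the classical monocyte genes F13a1, Vcan, Ly6c2 and Ms4a4c, and had to stay under limits on T cell, C1q macrophage, alveolar macrophage and neutrophil genes. Of the 8451 passing cells 475 were selected, 235 in the BLM library and 240 in the naive library. These were 5.19% (4.56% to 5.88%) and 6.11% (5.39% to 6.91%) of the passing cells, by Clopper-Pearson interval. The shares are given side by side and not compared, because 2 of the 5 rule genes differed more than 2-fold in level across the libraries' members. A further 205 BLM and 122 naive cells reached 3 rule UMIs but were left out by the other conditions. Most of those in the BLM library, 133 cells, were over the alveolar macrophage limit, against 38 naive cells. Over the C1q macrophage limit were 52 BLM and 2 naive cells, and a cell could be over several limits. Fewer rule than classical UMIs were held by 25 BLM and 68 naive cells. The conditions thus left out different kinds of cell in the libraries.

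At the threshold, 26 BLM and 15 naive members held exactly 3 rule UMIs and had a median of 7 of the 15 identity genes described next, in each library. Just outside it, 52 BLM and 23 naive cells held 2 rule UMIs and met all other conditions, with medians of 6.5 and 7 identity genes. Classical monocytes, described below, held medians of 6 (BLM) and 7 (naive). The median member held 7 rule UMIs in the BLM library and 12 in the naive library, and the depths differed too, with a median of 3011 UMIs per BLM member and 4267 per naive member.

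The label was checked against 15 further genes of nonclassical monocytes that the rule did not use, among them Nr4a1, Cx3cr1, Spn (CD43), Itgal, Pou2f2, Fcgr4 and Csf1r. The naive members carried a median of 12 of the 15 and the BLM members a median of 9. The data went against the label in most cells whose rule UMIs all came from 1 of the 5 genes, and 19 further BLM cells with macrophage genes are described below. There were 59 single-gene cells among the 235 BLM members and 11 among the 240 naive members. The BLM ones held a median of 2 identity genes. The 176 BLM and 229 naive members with UMIs of 2 or more rule genes held medians of 10 and 12, and 172 and 227 of them carried at least 5. These 405 cells are called multi-marker members below. Carrying at least 5 was not particular to them, since 131 of 177 BLM and 202 of 223 naive classical monocytes did so too. The division by number of rule genes was made after the data were seen. The main results are given with and without the other 70 members.

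**Figure D1:**
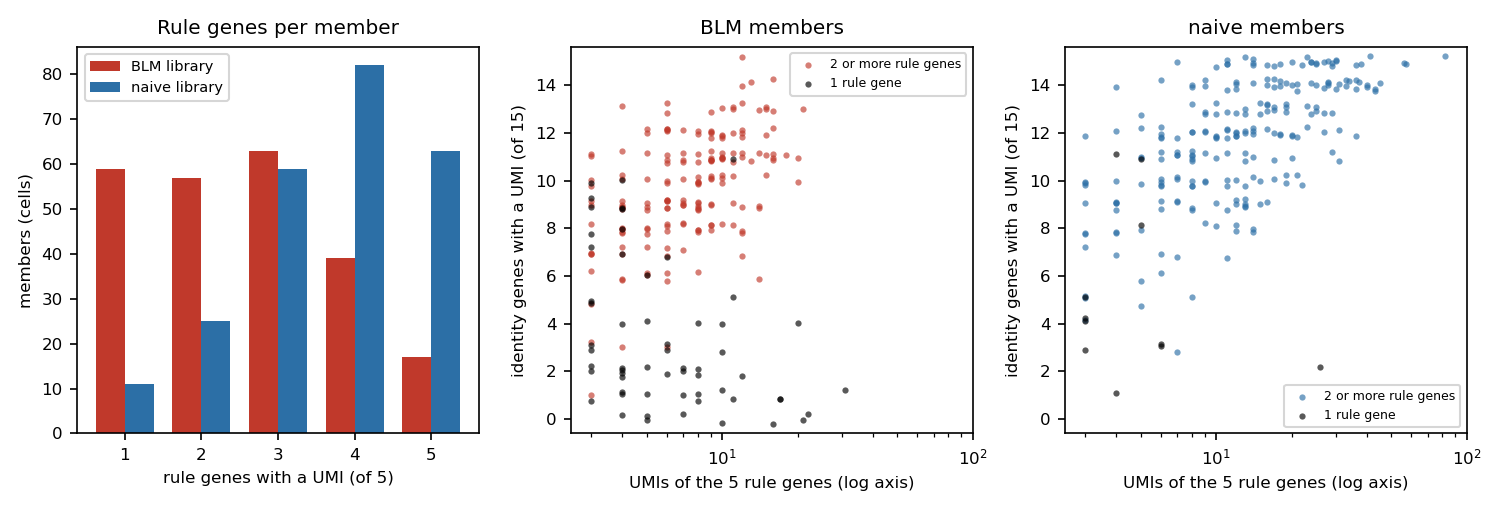
Left, members of each library by the number of the 5 rule genes with a UMI. Centre and right, each point is 1 member, with its UMIs of the rule genes on a log axis and the number of 15 identity genes with a UMI (jittered slightly), and black points have UMIs of a single rule gene. The 59 black points of the BLM library lie mostly at 4 or fewer identity genes, while coloured points lie mostly above 5.

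The single-gene members differed according to which gene had let them in. In the BLM library 32 were selected through Eno3 alone, the muscle-type enolase of glycolysis. They were led, against the multi-marker BLM members, by Ccl22, Fscn1, Il12b, Tbc1d4 and Ccr7, genes of mature dendritic cells that migrate to lymph nodes. Fscn1, which bundles actin in dendrites, was found in 30 of these 32 cells and in 5 of the 176 multi-marker cells, and Ccr7, the receptor for lymph node chemokines, in 29 and 11. The 6 dendritic markers summed to 3946 CPM (counts of UMIs per 1000000 of the same cells) in the Eno3-alone cells and to 100.2 CPM in the multi-marker cells. Neither Spn nor Cx3cr1 had a single UMI in the Eno3-alone cells.

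Another 17 BLM members were selected through Ace alone, the angiotensin-converting enzyme, which lung endothelium also carries. They were led by Cxcl12, Ptprb, Igfbp4, Mgp and Eln, genes of vessel wall and connective tissue cells. The 5 endothelial markers reached 2 or more UMIs in 10 of the 17 cells and the 5 fibroblast markers in 5. Of the 176 multi-marker BLM cells, 3 and 1 did so. Spn was at 0 in the Ace-alone cells too. In the naive library 5 members were selected through Ace alone, of which 4 reached 2 or more UMIs of the endothelial markers.

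The last 10 single-gene BLM members, selected through Adgre4 alone, had a median of 8 identity genes, and all 10 carried 5 or more. Of BLM classical monocytes, 131 of 177 also carried 5 or more. The nonclassical identity genes summed to 4615 CPM in them and the classical identity genes to 8669, against 9593 in BLM classical monocytes. Spn was at 27.4 CPM and Nr4a1 at 205, while Cx3cr1 was at 425. The C1q macrophage list reached 2 or more UMIs in 7 of the 10 cells. They were led by Il1rn, Ccrl2 and Cxcl2. Of the naive members 5 were selected through Adgre4 alone, with a median of 8 identity genes. The dendritic markers reached 2 or more UMIs in 3 of these 5 cells and summed to 3083 CPM, against 0 in the 10 BLM cells. No member was selected through Treml4 or Cd300e alone in either library.

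In the multi-marker members the 15 identity genes summed to 8816 CPM in the BLM and 11260 in the naive library. The same sum was 3494 and 4129 in the classical monocytes and 2002 and 2077 in the B cells of those libraries. Low sums of T cell, C1q macrophage, alveolar macrophage and neutrophil genes were partly set by the rule, which limited such genes. The T cell list summed to 25.9 and 59.1 CPM, the natural killer list to 14.6 and 71.0, the endothelial list to 116 and 14.6, the epithelial list to 6.47 and 8.19, and the 5 erythroid genes were at 0 in both libraries. B cell genes stood at 318 CPM in the BLM and 584 in the naive cells, where 59.4% of multi-marker cells held 2 or more such UMIs against 11.4% in the BLM cells. Neutrophil genes stood at 247 and 402 CPM, alveolar macrophage genes at 210 and 183, C1q macrophage genes at 288 and 144, dendritic genes at 100.2 and 64.6 and platelet genes at 4.85 and 0.91. Fibroblast genes were at 255 and 18.2 CPM, with 2 or more UMIs in 1 cell of each library. The part of free RNA from other cells in the results was not tested, and levels in B cells are therefore given beside some, not all, of the genes that follow. A level in B cells can be free RNA or their own expression, and these were not told apart.

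Compared with the classical monocytes of the same library (177 BLM and 223 naive cells, chosen by the 4 classical genes), the multi-marker members differed in genes that the rule had not used. The cells had been chosen by related genes, so the values are a description. Genes were counted as called only when they differed 2-fold or more, with an interval clear of 0, in the same direction in both libraries. Of 6518 genes with 20 or more UMIs over both kinds of cell in each library, rule genes left out, 183 were called higher (2.81% of all tested) and 172 lower (2.64%). For all members the numbers were 193 higher (2.69%) and 123 lower (1.72%) of 7170 genes. Of the 15 identity genes, 10 were higher in both libraries and none lower, with median log2 ratios of 1.36 (BLM) and 1.74 (naive), beside 0.05 and 0.00 over all genes.

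Slc12a2, a sodium, potassium and chloride cotransporter, was at 361 CPM in the multi-marker BLM members and 7.79 in BLM classical monocytes, and at 369 and 17.6 in the naive library. The gap was wide in both libraries. S1pr5, a sphingosine-1-phosphate receptor that nonclassical monocytes use to leave the bone marrow, had 102 UMIs against 9 in the BLM and 271 against 13 in the naive library. Fcgr4, the activating receptor for IgG2, was at 383 against 46.8 and at 442 against 40.7, and the inhibitory receptor Lair1 at 252 against 26.7 and at 263 against 38.8. Spn, whose product is the CD43 used to sort these cells, stood at 281 against 25.6 CPM and at 538 against 95.2. The survival genes Bcl2, Bcl2a1a, Bcl2a1b and Bcl2a1d were all higher in both libraries, 4 of the 10 compared from that list. So were the lipid genes Abcg1, Cd36, Fabp4 and Pparg, 4 of 13.

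On the other side, Ccr2, the receptor for Ccl2, was lower than in classical monocytes by log2 ratios of -1.29 in the BLM and -2.69 in the naive library. Mmp8, a collagenase, was lower by -4.32 and -3.96. Ciita, the master regulator of MHC class II, was the only one of 8 class II genes called lower in both. A pair of identity genes of classical monocytes behaved unequally in the libraries. Fn1, fibronectin, was lower by -3.65 in the naive cells but by only -0.99 in the BLM cells, and Chil3, a chitinase-like protein, stood at -0.94 and 0.21. The 10 genes furthest below classical monocytes were mostly collagen and matrix genes and immunoglobulin genes, such as Col1a1, Mgp, Igkc and Jchain. The classical group held more cells with UMIs of the fibroblast markers (9 of 177 BLM and 5 of 223 naive cells with 2 or more). Its B cell genes summed to 2252 (BLM) and 5167 CPM (naive), against 318 and 584 in multi-marker members. Its natural killer genes summed to 40.1 and 336 CPM, against 14.6 and 71.0. The part of such cells or of free RNA was not tested.

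**Figure D2:**
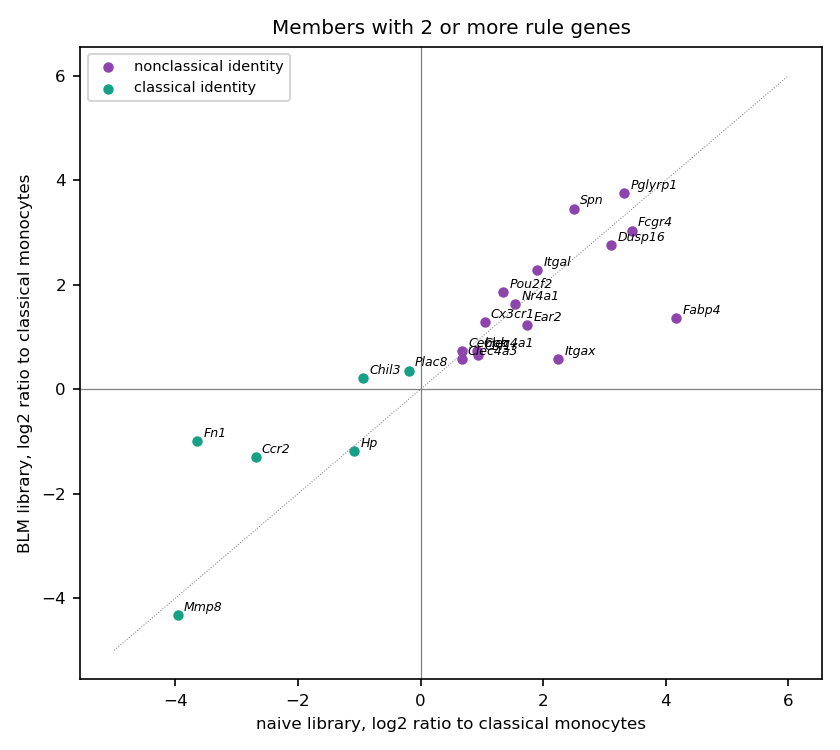
Log2 ratio of CPM in multi-marker members over classical monocytes, naive library on the x axis and BLM library on the y axis, for the 15 nonclassical (purple) and 6 classical (green) identity genes, none of which the rule used. The diagonal marks equal ratios, and Fn1, Ccr2, Fabp4 and Itgax lie furthest from it.

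The 475 selected cells were then set against each other across libraries, to describe nonclassical monocytes of the BLM lung beside those of the naive lung. Over all members, 8098 genes had 20 or more UMIs, and 959 were called higher in BLM (11.8%) and 338 lower (4.17%), with a median log2 ratio of 0.04. In multi-marker members 6949 genes were compared, with 403 higher (5.8%) and 181 lower (2.6%) and a median of 0.00. Of the genes called higher in all members 338 (35.2%) stayed called in the multi-marker members, and of those called lower 120 (35.5%). The rest were not called, or had fewer than 20 UMIs, without the single-gene members. Counts in other cells are given beside many results below. Over all genes, classical monocytes had 545 called higher and 346 lower of 7626, and B cells 105 and 325 of 9203. All passing cells outside the members had 592 and 919 of 13505.

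Ccl22, a chemokine for the receptor Ccr4, was among the 12 genes furthest above naive when all members were counted, with 1300 UMIs in BLM and 152 in naive members and a log2 ratio of 3.26 (3.02 to 3.51). In multi-marker members it was at 24 and 34 UMIs, a ratio of 0.33 (-0.49 to 1.12). Fscn1 went from 3.36 (3.09 to 3.63) to 1.39 (0.50 to 2.31) with 28 and 19 UMIs, found in 5 cells of each library. Ccl17, another Ccr4 ligand, kept its ratio, 4.41 against 4.81, but 317 of its 347 UMIs in multi-marker BLM cells were in 1 cell. Cacnb3 and Mmp25 had UMIs in 5 and 4 multi-marker BLM cells. Of the 12 genes, 10 were still called in the multi-marker members, and in Slc4a8 and Ccl22 the call was lost. In classical monocytes 9 of the 12 were called higher, in B cells 6 and in all passing cells outside the members 10.

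**Figure D3:**
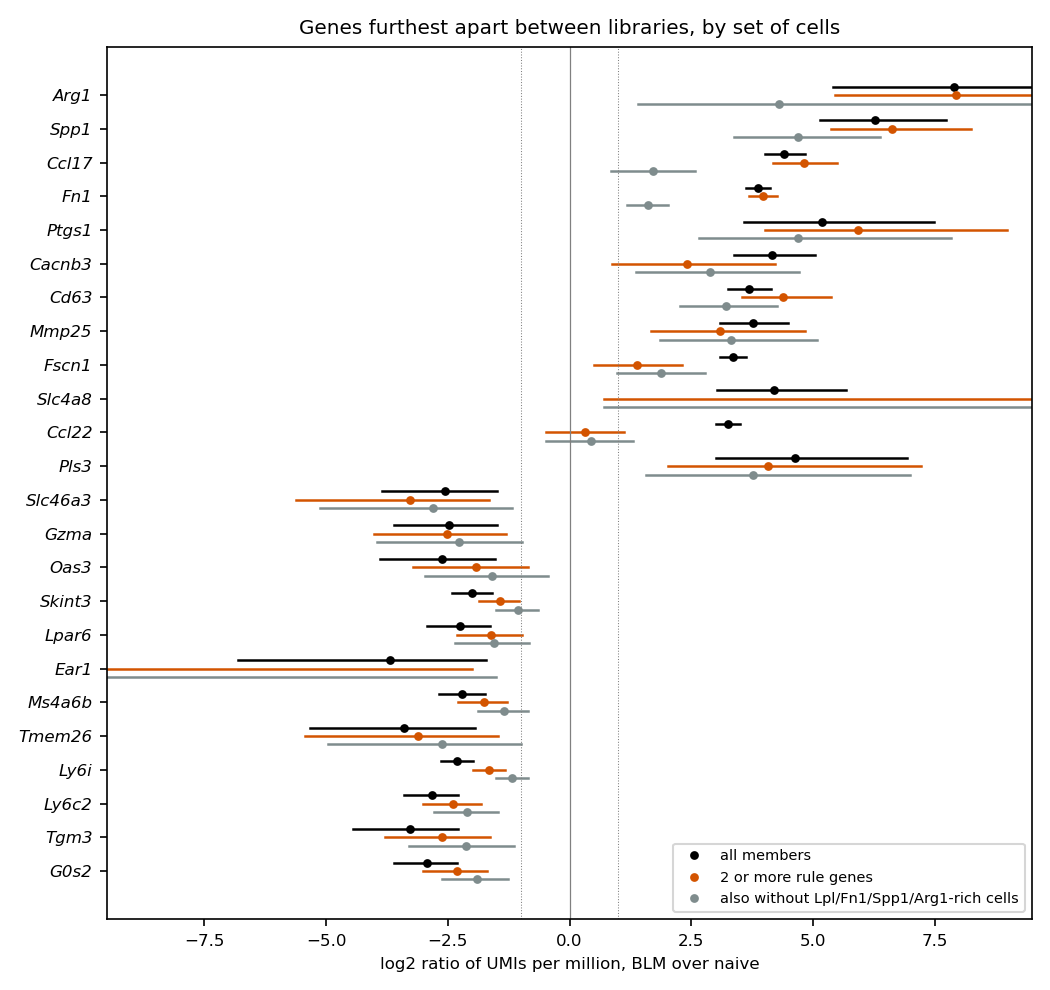
Log2 ratio of CPM, BLM over naive, for the 12 genes furthest above and the 12 furthest below 0 in all members, ranked by the interval end nearer 0. Points are ratios and bars are 95% counting intervals (cut at the axis ends; no point where a library had 0 UMIs), for all members (black), multi-marker members (orange) and multi-marker members without 19 BLM and 3 naive cells rich in Lpl, Fn1, Spp1 and Arg1 (grey). Dotted lines mark 2-fold. The 12 lower genes stay past 2-fold in each set, while Ccl22 and Fscn1 move toward 0.

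Among the multi-marker members the genes furthest above naive were Arg1, Spp1, Ptgs1, Fn1, Cd63, Anxa3, Pmepa1, Slc7a2, Lpl, F11r, Clec4n and Ccr1, many of them known from macrophages of the injured lung. Of these 12 genes 11 were also called higher in classical monocytes, 7 in B cells and 8 in all passing cells outside the members. Spp1, osteopontin, had 276 UMIs in 62 of the 176 BLM cells and 5 UMIs in 5 of the 229 naive cells, which is 446 (395 to 502) against 4.55 (1.48 to 10.6) CPM and a log2 ratio of 6.62 (5.38 to 8.25). Fn1 was at 1638 against 105 CPM, a ratio of 3.97 (3.69 to 4.26). Arg1, arginase, had 139 UMIs against 1. In both Spp1 and Arg1 the top 5 cells held most of the BLM UMIs, 64.1% and 69.1%. Spp1 was also found in B cells of the BLM library, at 46.5% of the level in all BLM members, and the part of free RNA was not tested.

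Of the multi-marker members, 19 BLM and 3 naive cells held 10 or more UMIs of Lpl, Fn1, Spp1 and Arg1 together, a limit set after the data were seen. The 19 cells held 89.0% of the Lpl, 89.2% of the Fn1, 81.2% of the Spp1 and 94.2% of the Arg1 UMIs of the 176, shares that describe the choice. A limit in UMIs also favours deep cells, and they had more UMIs, with a median of 9141 UMIs against 2502 in the other 157. They carried less Nr4a1 (385 against 2042 CPM), Ace (270 against 1158) and Treml4 (16.5 against 350), and more Chil3 (6919 against 680), Mrc1 (512 against 20.6) and Axl (870 against 36.6). Mrc1, the mannose receptor, and Axl, which binds dying cells, are macrophage genes, and each was found in 15 or 16 of the 19 cells.

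Without those cells, 197 genes were higher and 154 lower of 6577. Of 18 genes known from macrophages of scar tissue, 12 of the 18 compared were called higher in all members, 10 of 16 in multi-marker members and 4 of 14 without the 19 and 3 cells, with medians of 2.20, 1.96 and 0.21. Classical monocytes had 12 of 15 called higher with a median of 1.92, and all passing cells outside the members 12 of 18 with 1.84. B cells had 6 of 15 called higher, among them Spp1, Fn1, Arg1 and Cd63, with a median of 0.48. The list holds Spp1, Fn1 and Arg1, which had been used with Lpl to set the 19 and 3 cells apart. The lower count and median without those cells therefore partly follow from the choice. Cd63, a tetraspanin of lysosomes and exosomes that was not used, kept a log2 ratio of 3.22, and Fabp5, a fatty acid binding protein, one of 2.66. Ptgs1, cyclooxygenase 1, kept 4.70. In multi-marker members Cd63 was at 228 (192 to 269) against 10.9 (5.64 to 19.1) CPM, and Ptgs1 at 110 (85.4 to 139) against 1.82 (0.22 to 6.57).

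All 12 of the genes furthest below naive in all members were also called in the multi-marker members and again without the 19 and 3 cells. In classical monocytes 8 of the 12 were called lower, in B cells 4 and in all passing cells outside the members 7. G0s2, an inhibitor of the fat-splitting enzyme Atgl, had 23 UMIs in 20 of 176 BLM cells and 204 UMIs in 88 of 229 naive cells, 37.2 (23.6 to 55.8) against 186 (161 to 213) CPM and a log2 ratio of -2.32 (-3.01 to -1.69). Tgm3, a transglutaminase that links proteins, was at 14.6 (6.65 to 27.6) against 89.2 (72.4 to 109) CPM, a ratio of -2.62 (-3.79 to -1.63). Skint3, an immunoglobulin-like protein, was at 95.4 (72.6 to 123) against 258 (229 to 290). In no case did the intervals of the libraries meet. At equal depth of 1000 UMIs per cell, G0s2 was found in 4.50% of BLM and 14.2% of naive cells, Tgm3 in 2.09% and 6.99% and Skint3 in 11.2% and 22.5%. In naive B cells the same shares were 1.52%, 0.09% and 0.51%.

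For others the level in B cells was as high. Ear1 is an eosinophil-type ribonuclease of alveolar macrophages, and Gzma is granzyme A of natural killer cells. Both were lower in multi-marker BLM members, with 0 and 6 UMIs against 28 and 61 in naive ones. Their levels in naive B cells reached 176% and 142% of those in all naive members, and the part of free RNA was not tested. For Ly6c2, a rule gene, the B cell level was 151%. For the classical rule gene Ms4a4c it was 90.0%. Tgm3, Ly6i, Skint3, Cx3cr1 and Spn lay at or under 5% of the naive member level in naive B cells (0.57%, 1.17%, 2.11%, 3.41% and 4.95%).

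**Figure D4:**
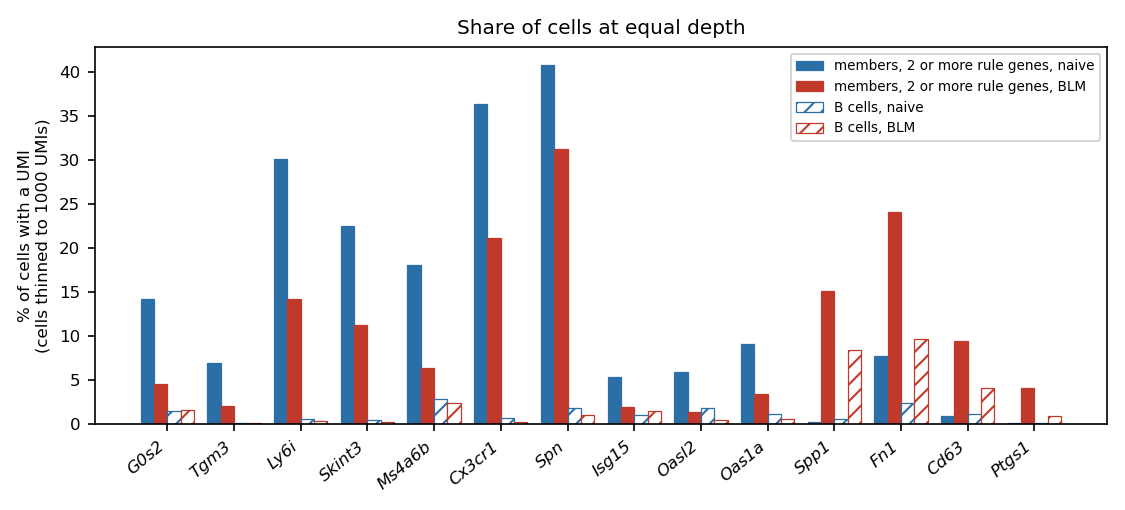
Percent of cells with at least 1 UMI of each gene after every cell was thinned to 1000 UMIs (mean over all possible draws), for multi-marker members (filled) and B cells (hatched) of each library. Members of the BLM library are lower than naive ones in the first 10 genes and higher in the last 4, where B cells of the BLM library are also higher than naive B cells.

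Ly6 proteins are small surface proteins anchored by a lipid, encoded in a cluster on chromosome 15, and Ly6c2 encodes most of the Ly6C used to sort monocytes. Ly6i (chr15:74979534-74983430, GRCm38, minus strand) was at 150 (121 to 184) CPM in multi-marker BLM members and at 473 (433 to 516) in naive ones, a log2 ratio of -1.65 (-1.99 to -1.33). It was found in 46 of 176 and 140 of 229 cells. In classical monocytes the ratio was -3.12. Of 8 family genes 5 were compared in multi-marker members, with Ly6c2 and Ly6i called lower and Ly6a and Ly6c1 higher. Ly6a in B cells was at 132% of the level in all BLM members. Without the 19 and 3 cells neither Ly6a nor Ly6c1 was called, with Ly6a turning from 1.31 to -0.28. Ly6i kept a ratio of -1.17 there. Ly6c2, at -2.10, is a description, since the rule limited it and its level in naive B cells was above that of naive members.

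Receptors that hold the patrolling cell to the vessel wall were not called in multi-marker members. Cx3cr1 was at 228 (192 to 269) against 454 (415 to 496) CPM in multi-marker cells, a log2 ratio of -0.99 (-1.27 to -0.72) that lay just under the 2-fold limit, while all members gave -1.36. Spn stood at 281 (241 to 326) against 538 (495 to 583), a ratio of -0.93 (-1.19 to -0.69). Itgal, the LFA-1 subunit, was at -0.67, and S1pr5 at -0.58. In the 157 BLM cells left without the 19, Spn was at 373 CPM and Cx3cr1 at 247. None of the 16 genes of adhesion and patrolling compared was called in multi-marker members, and their median was -0.28. In all members Itgal, Cx3cr1 and S1pr5 were called lower and S1pr1 higher. Nr4a1, the factor that maintains these cells, was at 1555 against 1751 CPM, a ratio of -0.17 (-0.28 to -0.06) that was 0.21 without the 19 and 3 cells, with B cells at 51.7% of the naive member level, and Csf1r, the receptor for their growth factor, at -0.14 (-0.30 to 0.02). Of the 15 identity genes, 7 were called lower in all members (Cx3cr1, Spn, Pou2f2, Itgal, Pglyrp1, Clec4a1 and Clec4a3), with a median of -0.82. In multi-marker members Fabp4 alone was called, at -1.66 (-2.19 to -1.16), with a median of -0.67, and without the 19 and 3 cells the list's median was -0.31.

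The rule genes themselves are a description, since they chose the cells. In all members Treml4 was at 149 against 429 CPM, a log2 ratio of -1.52, and Cd300e at -1.33, while Ace was at -0.67, Adgre4 at -0.82 and Eno3 at -0.28. In multi-marker members none of the 5 differed 2-fold, with ratios from -0.86 (Treml4) to -0.26 (Adgre4), and without the 19 and 3 cells they lay between -0.39 and 0.05.

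Genes switched on by interferons, whose products block viruses and help present antigen, formed a list of 22. In multi-marker members 16 could be compared, and Isg15, Irf7, Oasl2, Oas1a, Ifi27l2a and Bst2 were called lower and none higher, with a median log2 ratio of -0.88 beside 0.00 over all genes. Oas1a, which senses double-stranded RNA, was at 34.0 against 106 CPM, on 21 and 117 UMIs, a ratio of -1.65 (-2.39 to -0.97). Isg15, a ubiquitin-like protein, had 13 UMIs against 79, a ratio of -1.77 (-2.75 to -0.92). In all members 7 of 17 were called lower and Cxcl10 higher, with a median of -0.79. Irf7 and Ifi27l2a were under the 2-fold limit without the 19 and 3 cells, and the other 4 stayed called. Classical monocytes had 18 of 21 called lower, with a median of -1.55, and the B cells 6 of 18 with a median of -0.46. Over all genes, 346 of 7626 were called lower in classical monocytes and 325 of 9203 in B cells. Of the 13 MHC class I genes, which interferons also raise, Tap1 and H2-Q6 were called lower in multi-marker members. The median there was -0.48, and none had a ratio above 0. B cells exceeded the members in both of these genes, at 109% and 165% of the level in all naive members. In all members none of the 13 was called, with a median of -0.21 and 5 above 0. Without the 19 and 3 cells Tap1 alone was called, with a median of -0.31 and 3 above 0.

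Interferon genes share a control sequence, the interferon-stimulated response element, which the STAT and IRF factors bind. It was searched as GAAAC, any 1 base, then GAAA, on both strands of the 250 bases before each gene's first listed start (RefSeq, GRCm38.p6). It was present in 166 of 27025 promoters (0.614%), in 5 of the 16 genes of the interferon list of 22 that the promoter table held, and in 3 of the 5 so held among the 6 called lower in multi-marker members. Ifi27l2a was not searched. The 3 promoters were picked because they hold the motif, which is in capitals, and show where it lies. The first holds a pair of overlapping copies, and the others 1 each.
Isg15 (chr4:156200819-156201068, minus strand): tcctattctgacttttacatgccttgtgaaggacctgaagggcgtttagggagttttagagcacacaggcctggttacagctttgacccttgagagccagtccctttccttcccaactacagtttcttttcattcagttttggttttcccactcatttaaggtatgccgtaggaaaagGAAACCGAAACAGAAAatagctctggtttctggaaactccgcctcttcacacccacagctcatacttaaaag
Oas1a (chr5:120907526-120907775, minus strand): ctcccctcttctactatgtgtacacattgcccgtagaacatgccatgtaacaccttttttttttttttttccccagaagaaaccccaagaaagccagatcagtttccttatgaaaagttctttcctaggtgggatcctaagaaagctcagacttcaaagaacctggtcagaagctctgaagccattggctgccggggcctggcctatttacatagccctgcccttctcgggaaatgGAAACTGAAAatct
Bst2 (chr8:71537473-71537722, minus strand): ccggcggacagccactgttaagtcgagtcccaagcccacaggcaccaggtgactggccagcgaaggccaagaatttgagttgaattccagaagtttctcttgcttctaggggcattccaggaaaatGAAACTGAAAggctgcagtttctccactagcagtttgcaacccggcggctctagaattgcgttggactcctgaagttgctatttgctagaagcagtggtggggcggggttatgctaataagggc
The windows of Irf7 and Oasl2 held no copy of these letters. A match describes the sequence only and is no sign of binding in these cells.

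Of 16 secreted inflammatory factors compared, 7 were called higher in multi-marker BLM members, Il1a, Il1rn, Tnf, Il6, Osm, Ccl3 and Cxcl2, and Ccl5 was called lower, with a median of 0.92. Of those, Tnf, Il6 and Ccl3 stayed called higher and Ccl5 lower without the 19 and 3 cells. In all members 8 of 17 were called higher, and Tgfb1 and Ccl7 lower. Tnf was at 162 (132 to 197) against 51.0 (38.5 to 66.2) CPM, a log2 ratio of 1.67 (1.18 to 2.16), and was found in 10.9% against 3.66% of cells at equal depth. Il6 was at 64.7 (46.2 to 88.1) against 6.37 (2.56 to 13.1), yet rested on 9 BLM cells, 1 of which held 22 of the 40 UMIs. Il1b, the most abundant of the list, was at 3402 against 1883 CPM, a ratio of 0.85 that was not called. Ccl5 was at 66.3 against 194. Nfkbia and Socs3, which dampen such signals, had ratios of 1.02 and 1.26, Ier3 had 1.83, and those 3 were called of 19 early response genes. Classical monocytes also had those 3 called higher. Of 17 secreted factors they had 10 called higher, including the 7 named first, with a median of 1.25. B cells had 5 of 17 called higher, among them Il1a, Il1b, Osm and Cxcl2, and all passing cells outside the members 8 of 19.

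Among genes of T cell stimulation, in all members Cd86, Cd274 and Pdcd1lg2 were called higher, 3 of 10, and in multi-marker members none of 9, with Cd40 called lower on 4 against 23 UMIs. Cd86 was at 118 (92.5 to 148) against 68.2 (53.7 to 85.5) CPM in multi-marker members, a log2 ratio of 0.79 (0.31 to 1.27). B cells of the BLM library were at 126% of the level in all BLM members, which was 157 CPM. Cd80 was at 0.13 (-0.41 to 0.65). Cd274, which encodes PD-L1, was at 0.98 (0.61 to 1.35), and was called, at 1.27, without the 19 and 3 cells. Tgfb1, the growth factor of fibrosis, was at 53.4 (36.7 to 74.9) against 84.6 (68.3 to 104), a ratio of -0.67 (-1.28 to -0.08). None of 9 MHC class II genes was called in either set, with medians of 0.35 in all members, -0.03 in multi-marker members and -0.76 without the 19 and 3 cells.

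Other lists were read in the multi-marker members, where 5.8% of all genes were called higher and 2.6% lower, so that 1 called gene in a short list is near the background. Of 12 survival genes Bcl2l1 was called higher, at 34.0 against 7.28 CPM on 21 and 8 UMIs, and none lower, while in all members Bcl2 was also called lower. Of 11 pattern recognition genes Tlr2, Tlr4, Cd14 and Clec4e were higher, of which Tlr4 and Clec4e stayed called without the 19 and 3 cells. In all members Tlr4 and Cd14 were called higher and Tlr1, Tlr7 and Tlr13 lower. Of 6 Fc receptor genes the inhibitory Fcgr2b was higher, with a ratio of 1.66 that dropped to 0.45 in that set, while Fcgr4 was at -0.21 (-0.44 to 0.02) and at 0.17 there. Ctsd, Ctsl and Cstb were called of 14 lysosome genes, Hk2 and Hilpda of 16 hypoxia and glycolysis genes, and none of these lysosome and hypoxia genes stayed called without the 19 and 3 cells. Of 14 lipid genes Abca1, Lpl and Fabp5 were called higher and Fabp4 lower, and in that set the call of Lpl, a gene used to choose the cells, was lost. No antioxidant or iron gene of 9 was called. Of 5 cell cycle genes Top2a, Stmn1 and Ube2c were called higher, against 7 of 9 in all members, and without the 19 and 3 cells none of 4 was. Among the genes named here as higher, classical monocytes also had Tlr2, Tlr4, Clec4e, Ctsd, Ctsl, Cstb, Hilpda, Abca1, Fabp5 and Ube2c called higher. Bcl2l1, Cd14, Fcgr2b, Hk2, Lpl, Top2a and Stmn1 were not called higher there.

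**Figure D5:**
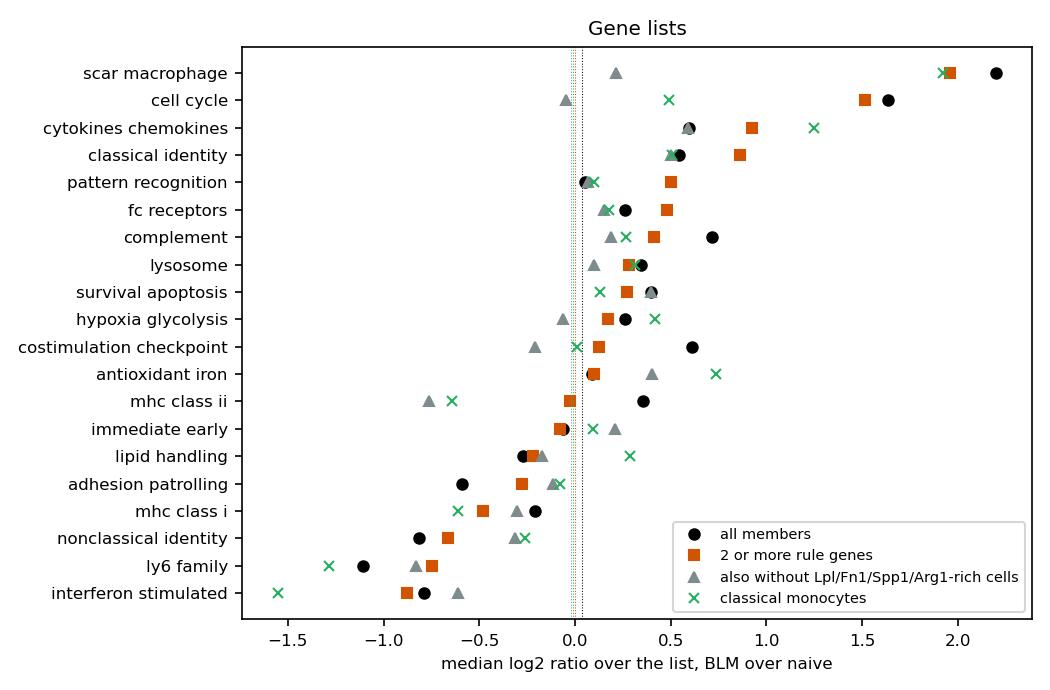
Median log2 ratio of CPM, BLM over naive, for each of the 20 functional and identity lists (rule genes and markers of other cell types are not shown) in all members (circles), multi-marker members (squares), multi-marker members also without the cells rich in Lpl, Fn1, Spp1 and Arg1 (triangles) and classical monocytes (crosses). Dotted lines give the median over all genes compared in each set. Of the lists shown, the interferon list lies lowest in multi-marker members at -0.88 and the scar macrophage list highest at 1.96, moving to 0.21 without the cells left out.

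The members also varied among themselves. When each cell was thinned to 1000 UMIs, 594 genes had 50 or more UMIs in each library of multi-marker members, and their median variance was 1.17 times the mean in the BLM and 1.10 in the naive cells, near the value that random sampling gives. The most uneven were Cd74 (6.46 and 5.36), H2-Ab1 (5.30 and 7.16) and H2-Aa, which load and present peptides on MHC class II. Il1b, the secreted cytokine, had 4.42 and 5.45 and was found in 70.5% and 61.8% of thinned cells. Hmox1, heme oxygenase, was uneven in the BLM cells above all (15.9 against 4.48), as was the iron store Fth1 (10.1 against 4.25). Thbs1, Lyz2, Cst3 and Plac8 completed the 10. MHC class II genes were also highly expressed in B cells, with Cd74 at 245% of the BLM member level, and the part of free RNA in their spread was not tested. In all members Cd74, H2-Ab1 and H2-Aa led as well, and Cxcl2, Tmem123 and Ccl5 took the places of Thbs1, Cst3 and Plac8.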

How the data were processed

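Living CD45+ lung cells of 1 BLM and 1 naive library, each a pool of 3 mice, were sequenced by the authors with the BD Rhapsody whole transcriptome assay. The deposited tables hold UMI counts per cell and gene, and per the file headers they came from the BD pipeline, version 1.8, with GRCm38 and GENCODE vM19. The counts are corrected for sequencing errors in the molecular tags by that pipeline, and a gene absent from a table was taken as 0. All UMIs of a set of cells were summed and divided by the set's total, giving counts per 1000000 UMIs (CPM). Log2 ratios have exact conditional intervals, and a gene was called at 2-fold or more with an interval clear of 0 when it had 20 or more UMIs over both sides. No p-value was computed, since cells are not replicates. The lowest level read from a count of 0 was that of 3 counts.

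The members, the gene lists and the comparisons were chosen with earlier results of these data known. Genes named were the 5 and 4 rule genes, Nr4a1, Cx3cr1, Spn, Cd80, Cd86, Tgfb1 and Spp1, the 12 highest and 12 lowest by the interval end nearer 0 with a UMI in 10% of cells of the higher side, the 10 furthest from classical monocytes in each direction, the called members of each list (otherwise the 3 with most UMIs, where a list is described by genes) and the 10 most variable genes. The same ranks in multi-marker members, and single genes outside these rules, were added after values were seen. B cells (3 or more UMIs of Cd79a, Cd79b and Ms4a1) were the background set beside genes. Where a B cell level is given as a percentage, it is of the level in all members, not in multi-marker members alone. Their levels also hold their own expression, so they are not a measure of free RNA alone. Members totalled 1044402 BLM and 1169730 naive UMIs, so 3 counts equal 2.87 and 2.56 CPM. The pipeline's cell calls were kept and no doublets were removed. Scrublet marked only 0.133% of BLM and 1.35% of naive cells by its automatic limit, and leaving out its highest 3% is among the alternatives. Scripts used Python 3.11.15, NumPy 2.4.6, SciPy 1.17.1, pandas 2.3.3, scanpy 1.11.5 and matplotlib 3.10.9. The ratio was tested on simulated counts with known changes. Those counts were drawn independently for each gene, so that check does not cover UMIs gathered in a few cells. Some measured genes are not reported here. Gene positions came from GENCODE vM21 on the same build.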

Additional observations from a re-analysis of the deposited data

Results flagged for a closer look

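Fabp4, a fatty acid binding protein of capillary endothelium and nonclassical monocytes, moved in opposite directions in multi-marker members and classical monocytes. The BLM to naive log2 ratio was -1.66 in the first and 1.14 in the second, a difference of -2.80 that was not tested. In classical monocytes it rested on 22 UMIs in 4 BLM cells, of which 1 held 16, and 12 UMIs in naive cells. In all members the ratio was -0.28, since 1 BLM cell held 120 of the 161 UMIs.

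Cells with 3 or more rule UMIs that the other conditions left out were 4.53% of the passing BLM cells and 3.11% of the passing naive cells. They enter no comparison here.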

How the results depend on the processing

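With 1 library per group no replicate could be left out, and no paired analysis was possible because each group has a single sample. The share of passing BLM cells moved from 5.19% to 6.34% with 2 or more rule UMIs, 3.91% with 5 or more and 3.89% with 2 or more rule genes, and the naive share from 6.11% to 7.003% with at most 10% mitochondrial UMIs. Genes higher in BLM members numbered 959, and 403 with 2 or more rule genes, 197 when the cells rich in Lpl, Fn1, Spp1 and Arg1 were also left out, 165 after thinning to 1000 UMIs, 494 with 50 or more UMIs and 1462 with no filter. Genes lower numbered 338, and 181, 154, 112 and 224 under the first 4 of these. Thinning and the higher minimum left fewer UMIs and genes to compare. The other alternatives kept each count within 1.5 times, and the counts against classical monocytes did so in all that were run. None of the 30 genes so compared reversed a call, but small ratios crossed 0 without the rich cells: Nr4a1 stood at 0.21, Fcgr4 at 0.17, Csf1r and Adgre4 at 0.05 and Cd74 at -0.43. Of these Nr4a1 alone is among the 30. Ly6a, called higher at 1.31 with 2 or more rule genes, turned to -0.28 there. With 2 or more rule genes 5 of 28 named genes crossed the 2-fold call, 5 of 26 when the rich cells were also left out, after thinning 2 of 21, and by the mean of per-cell levels 2 of 30. Lists of few UMIs, such as the interferon genes, are limited by the depth of the BLM members.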
